A study of Homo sapiens with 3 samples.

Results

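The genes MIR9-1, MIR9-2 and MIR9-3, which encode miR-9, and MIR124-1, MIR124-2 and MIR124-3, which encode miR-124, were examined for accessible chromatin in human neurons made from stem cells. An accessible region was taken for a gene when a summit of it, its point of highest signal, lay within 100 kb of the hairpin, the stretch of DNA that is transcribed into the folded microRNA precursor. By this rule 71 of the 65234 distinct regions in the data belonged to the 6 genes, 47 of them to the miR-9 genes and 24 to the miR-124 genes. RefSeq lists 1913 microRNA genes, against which the 6 were set. The regions came from ATAC-seq, in which Tn5 transposase places sequencing adapters into open DNA, on KOLF2.1J-hNGN2, a derivative of the established induced pluripotent stem cell line KOLF2.1J in which neurons are induced with the transcription factor NGN2. There were 3 biological replicates at day 14 of differentiation, each from 100000 harvested cells, and the wider study looked for regulatory elements of the tau gene MAPT. All samples formed 1 group without a control or an undifferentiated counterpart, and the submitters merged them into a single peak list with no value per replicate. No spread between replicates and no test can therefore be given, the depth of each replicate is not given in the sources used here, and the cells represent a single line whose fate was driven by NGN2.

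MicroRNAs are cut from hairpin precursors by DROSHA and DICER1 and are loaded into Argonaute proteins, which they guide to messenger RNAs through a short 5′ segment called the seed. miR-124 is among the most abundant microRNAs of mature neurons, and miR-9 is made in both neural progenitors and neurons. Both act against non-neuronal regulators such as REST and PTBP1, and when supplied together they can push fibroblasts toward a neuronal state. Each is encoded at several places in the genome, so the mature product does not show which copy was transcribed, whereas chromatin can be read copy by copy. ATAC-seq measures openness of the DNA and not the amount of the microRNA.

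Marker genes were used to examine the neuronal label. A coding gene was scored as having an accessible end when the strongest summit of a region fell no more than 1 kb from either outer end, which held for 66.7% of all 20037 coding genes. Of the pan-neuronal markers, 7 of 10 had an accessible end (MAP2, ELAVL3, STMN2, SYN1, SNAP25, DCX and NEFL), a share near that of all coding genes. Of the other 3, TUBB3 and RBFOX3 had a summit in an annotated promoter, and the nearest summit to an end of ELAVL4 was 24.1 kb away. Pluripotency markers had an accessible end in 1 of 6 cases (LIN28A), with POU5F1, NANOG, CRIPTO, DPPA4 and ZFP42 without, although DPPA4 had a summit in an annotated promoter. Neural progenitor markers scored in 6 of 6 cases and astrocyte markers in 3 of 4, all but GFAP. Muscle and liver markers, which stand for other tissues, scored in 1 of 4 (MYH2). Of all coding genes with an annotated promoter, 57.5% had a summit in it. Among markers with one, this held for 5 of 6 pan-neuronal, 1 of 4 pluripotency and 4 of 6 neural progenitor markers. It also held for 2 of 2 astrocyte markers and for 0 of 3 muscle and liver markers. An accessible end is not expression, and these shares do not give the makeup of the culture.

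The sequences show why the 3 miR-9 copies cannot be told apart from their products. RefSeq (GRCh38.p14) gives the same pair of mature strands for all 3 genes, shown 5′ to 3′ with the seed, bases 2 to 8, in capitals.
hsa-miR-9-5p: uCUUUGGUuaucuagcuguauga
hsa-miR-9-3p: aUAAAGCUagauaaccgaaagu
Among 1774 microRNA genes with a sequence in the table, the seeds CUUUGGU and UAAAGCU were each found at these 3 genes alone. The hairpins, with both mature strands in capitals, differ outside those strands.
MIR9-1, chr1:156420341-156420429, minus strand: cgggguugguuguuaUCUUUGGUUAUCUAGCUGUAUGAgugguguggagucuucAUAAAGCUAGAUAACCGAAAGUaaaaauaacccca
MIR9-2, chr5:88666853-88666939, minus strand: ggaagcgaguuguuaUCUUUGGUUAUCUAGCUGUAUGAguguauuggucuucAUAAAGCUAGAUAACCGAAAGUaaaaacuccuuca
MIR9-3, chr15:89368017-89368106, plus strand: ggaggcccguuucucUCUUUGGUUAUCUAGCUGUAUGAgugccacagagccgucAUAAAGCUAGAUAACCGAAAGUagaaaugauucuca
The loop between the strands has 16 bases in MIR9-1, 14 in MIR9-2 and 16 in MIR9-3. After alignment MIR9-1 and MIR9-2 were identical at 83.1% of positions (74 of 89), MIR9-2 and MIR9-3 at 79.1% (72 of 91), and MIR9-1 and MIR9-3 at 77.8% (70 of 90).

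The 3 miR-124 genes lie at chr8:9903388-9903472 (MIR124-1), chr8:64379149-64379257 (MIR124-2) and chr20:63178500-63178586 (MIR124-3).

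Each of the 6 hairpins had a region summit within 2 kb, and 4 of 6 had it within 1 kb (MIR9-2, MIR9-3, MIR124-1 and MIR124-3). Over all 1913 microRNA genes, 13.9% had a region summit within 1 kb and 20.1% within 2 kb. The hairpin itself lay inside an accessible region at MIR9-3 and at MIR124-3, 2 of 6 genes, against 8.89% of all microRNA genes. Each microRNA thus had 1 copy with the hairpin inside a region. At MIR124-1 the hairpin was 69 bp from the edge of the nearest region, at MIR9-2 312 bp, at MIR9-1 810 bp and at MIR124-2 1711 bp. By the strongest summit MIR124-1, at 907 bp, was just inside the 1 kb window and MIR9-1, at 1377 bp, just outside, and a window of 500 bp left 1 gene, MIR124-3. The 6 genes were picked with earlier results of these data in view, so these counts describe them and were not tested.

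**Figure D1:**
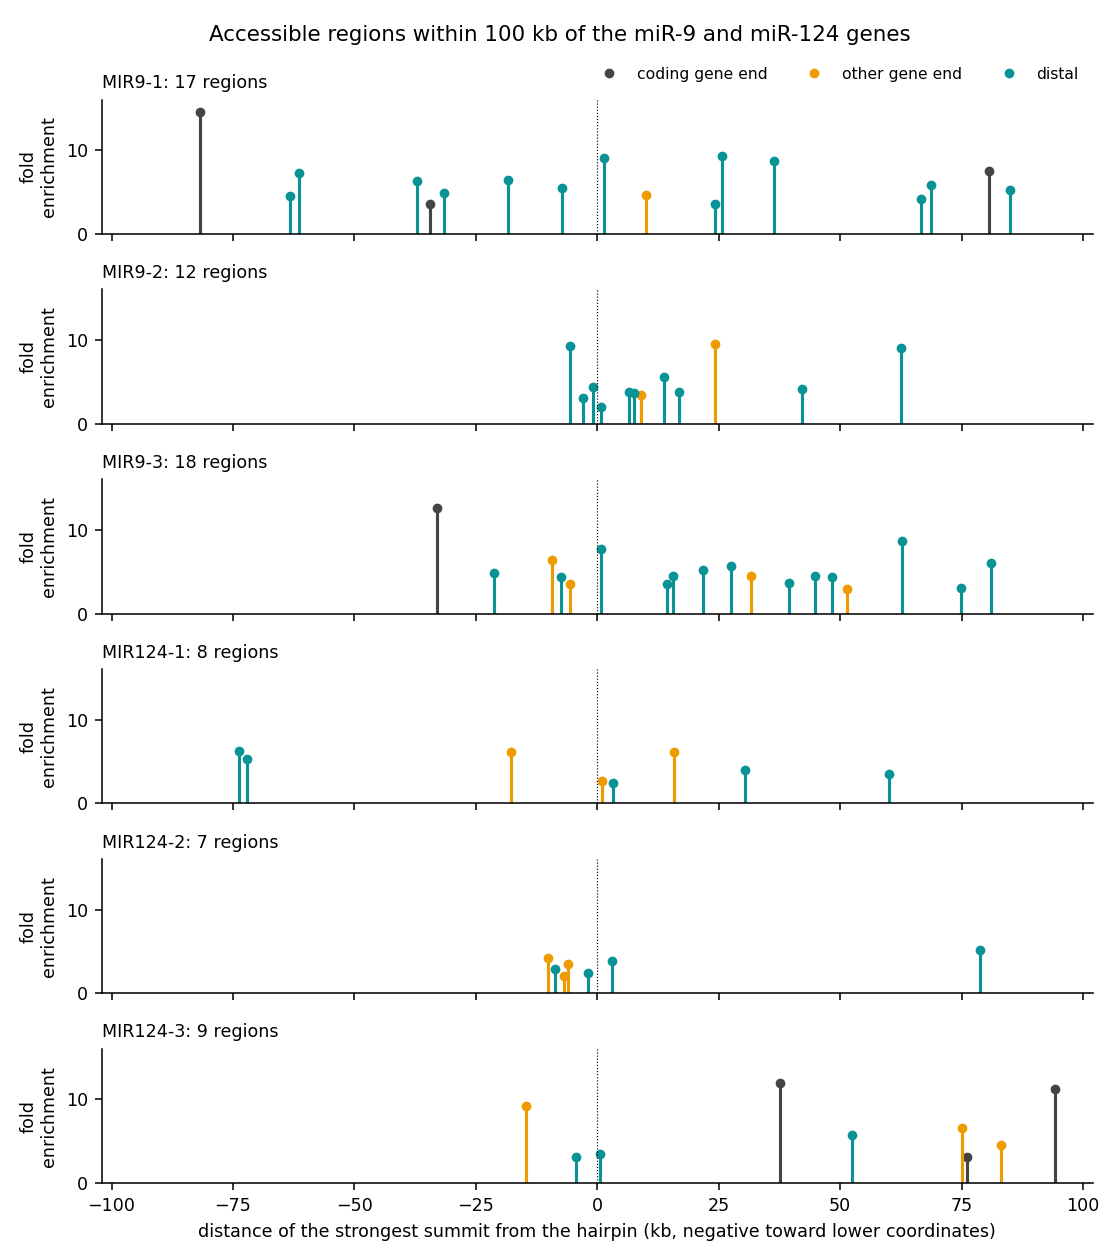
Accessible regions within 100 kb of each of the 6 hairpins. The x axis is the distance of the strongest summit from the hairpin in kb (negative toward lower coordinates), the y axis is the deposited fold enrichment, and color gives the class of the region. Classes use outer gene ends only, so a region at a start site inside a gene can be colored as distal. MIR9-1 and MIR9-3 have the most regions, 17 and 18. The outermost stretch of the lower side is without a region over 94.3 kb at MIR9-2, 89.8 kb at MIR124-2, 85.3 kb at MIR124-3 and 66.9 kb at MIR9-3.

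The copies differed in how many regions lay around them. Within 100 kb there were 18 regions at MIR9-3, 17 at MIR9-1, 12 at MIR9-2, 9 at MIR124-3, 8 at MIR124-1 and 7 at MIR124-2, where a microRNA gene had a median of 6 and an upper quartile of 9. MIR9-3 ranked 17th and MIR9-1 24th of the 1913 genes by this count, while MIR124-2 ranked 690th. Neighbours in this order differ by 1 to 5 regions, and with 1 merged list no error can be set against such differences. Counting only regions above the median fold enrichment of the whole list, 5.60, gave 9 at MIR9-1, 6 at MIR9-3, 5 at MIR124-3, 3 each at MIR9-2 and MIR124-1 and 0 at MIR124-2. Within 10 kb the order was another, with 7 regions at MIR9-2, 5 at MIR124-2, 4 at MIR9-3, 3 at MIR9-1 and 2 each at MIR124-1 and MIR124-3. The 7 regions at MIR9-2 were the highest count of all 1913 genes, whose median was 1, and the 5 at MIR124-2 were also found at MIR130A, MIR1244-1, MIR4683 and MIR8078, behind MIR5684 with 6.

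**Figure D2:**
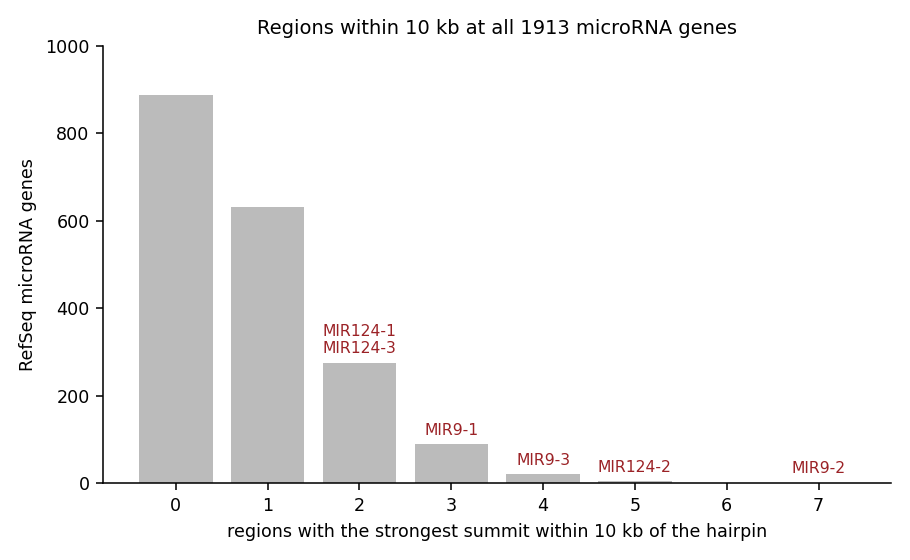
Number of accessible regions within 10 kb of each of the 1913 RefSeq microRNA genes. The x axis is the number of regions, the y axis is the number of genes, and the 6 members are written above their bars. Of all genes, 889 have no region within 10 kb and 632 have 1, and MIR9-2 is the only gene with 7.

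Regions were then classed by position. Of the 71 regions, 7 lay within 1 kb of an end of a coding gene, 16 at an end of another gene and 48, or 67.6%, were distal, compared with 75.5% distal among all regions. Distal here means more than 1 kb from the outer ends of these genes, so a start site inside a gene counts as distal. The closest region of MIR9-1 and the region 6480 bp from MIR9-2 were classed so. Their summits lay 37 and 80 bp before start sites of MIR9-1HG and MIR9-2HG, the host transcripts. Distal regions made up 36 of 47 at the miR-9 genes (76.6%) and 12 of 24 at the miR-124 genes (50.0%). MIR9-2, MIR124-1 and MIR124-2 had no region at a coding gene end. The highest fold enrichments around MIR9-1 and MIR9-3, by contrast, were at ends of coding genes. Near MIR9-1 this was the region 154 bp from an end of CCT3, a chaperonin subunit, 81.9 kb away (fold enrichment 14.5), and near MIR9-3 the region 106 bp from an end of POLG, the mitochondrial DNA polymerase, 33.1 kb away (12.6). Near MIR124-3 the 2 highest values were at YTHDF1, a reader of methylated RNA (11.9, 37.7 kb away), and at ARFGAP1, a regulator of Golgi traffic (11.3, 94.2 kb away).

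At MIR9-1 the region closest to the hairpin was chr1:156421239-156422260. Its single summit lay 1377 bp upstream, inside the host transcript MIR9-1HG, with 582 tags (95% interval 536 to 631) and a fold enrichment of 8.98. Tags are the sequencing tags piled over the summit, pooled over all replicates. Fold enrichment is the tag count plus 1 over a background plus 1. The background was read as the mean pile of tags in the 10 kb around the summit, with a floor of 29.2 tags. Of all summit entries, 14.6% had a background at this floor. Intervals are exact Poisson intervals and cover counting error only, since amplified reads without molecular identifiers are not independent molecules. A downstream region at 7188 bp had 346 tags (310.5 to 384), and a region with 6 summits 9917 bp upstream had 503 (460 to 549). Of these 3 regions the one with 346 tags is lower than the others beyond counting error, and the intervals of the other two overlap between 536 and 549 tags. Farther upstream, distal regions at 25.6 and 36.3 kb had 407 and 977 tags, and the region 207 bp from an end of MEF2D, which encodes a transcription factor of neurons and muscle, had 1389.

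At MIR9-2 the regions formed a continuous group. From chr5:88660527 to chr5:88691486, 10 regions with 18 summits followed each other with no more than 10 kb between neighbouring summits, over 31.0 kb, with a median of 985.5 tags. The highest, chr5:88660527-88661610, lay 5725 bp downstream with 2323 tags (2229 to 2419) and a fold enrichment of 9.31. Its tag interval lies above those of every other region within 100 kb of this gene, of which the next had 1063 tags (1000 to 1129) at 834 bp downstream, and a further region on this side, at 2912 bp, had 881 (824 to 941). The region nearest to the hairpin on the upstream side had the lowest count of the group, 363 tags (327 to 402) at 771 bp. Beyond it, regions at 6480, 7578 and 9047 bp upstream had 991, 980 and 1014 tags, and their intervals overlap. The region at 9047 bp lay 232 bp from an end of MEF2C-AS2, another non-coding transcript. The upstream border of the group was a region at 24.2 kb with 559 tags (514 to 607) and a fold enrichment of 9.50, 104 bp from the outer end of MIR9-2HG, the host transcript. On the other side no further region had its strongest summit within 100 kb, although MIR9-2HG, 152.8 kb long in RefSeq, runs on through that stretch. A separate region 62.6 kb upstream, with 521 tags and a fold enrichment of 8.97, lay inside MEF2C, a gene for a neuronal transcription factor.

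At MIR9-3 the hairpin sat inside chr15:89367361-89369350, a region of 1990 bp with 4 summits. The summits 396 bp before and 679 bp after the hairpin had 733 and 996 tags, and those at 170 bp before and 141 bp after had 302 and 268. The hairpin thus lay between the lower of the summits. Upstream, regions at 5565, 7573 and 9244 bp had 572 (526 to 621), 699 and 995 tags (934 to 1059), so that the count was highest at the 2 outer regions of this 10.9 kb group, 995 and 996, with intervals that overlap almost wholly. Of the 18 regions, 13 lay on the downstream side, where the region with the highest fold enrichment, 8.64, was 62.8 kb away with 488 tags.

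**Figure D3:**
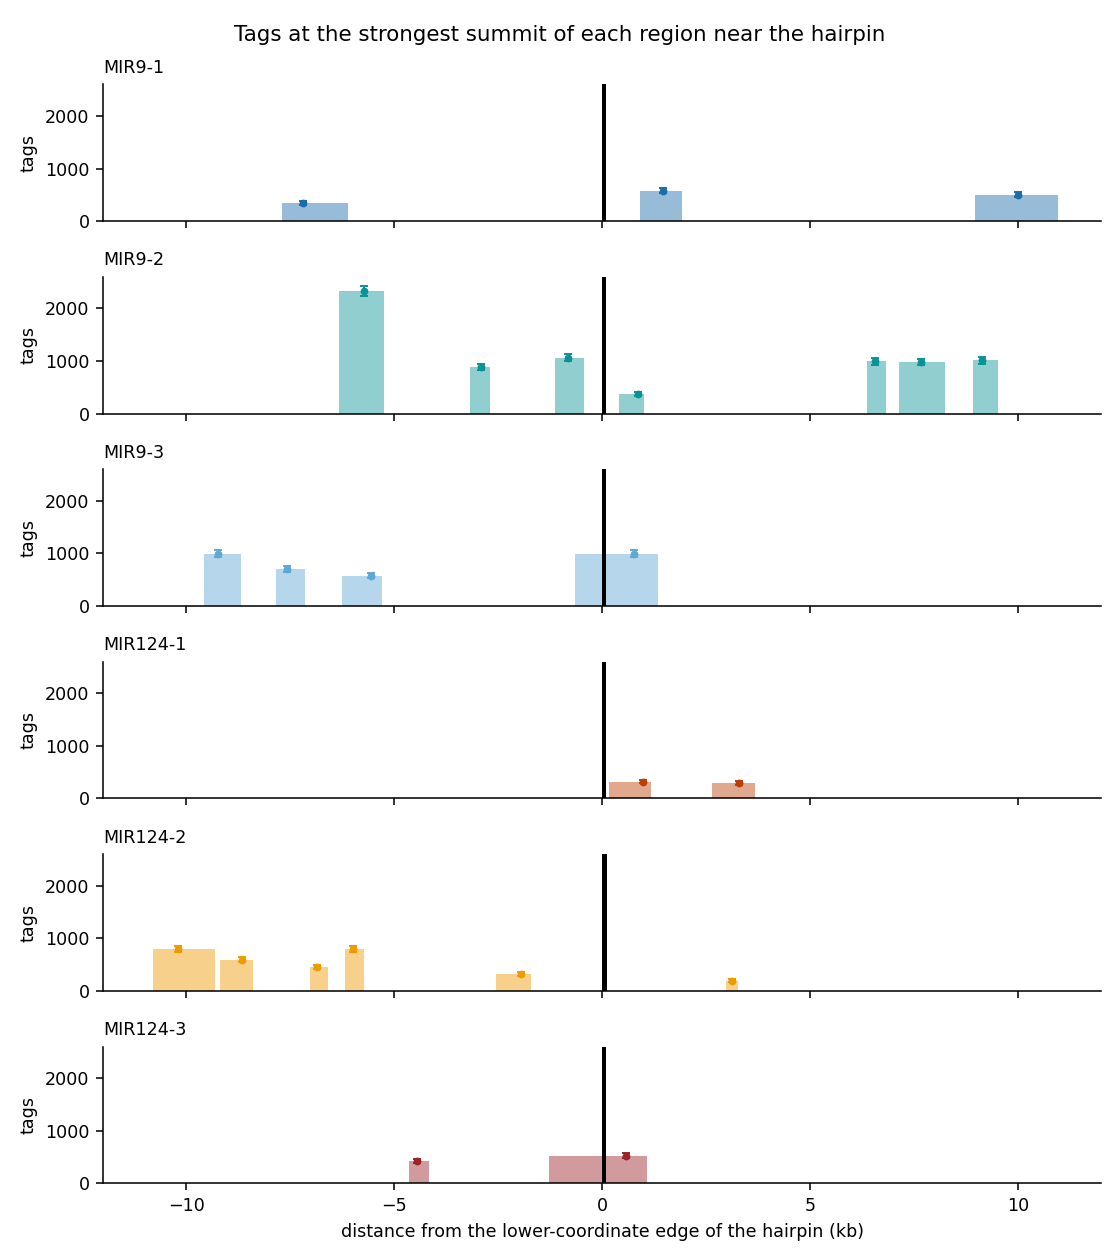
Regions within about 11 kb of each hairpin. The x axis is the distance from the lower-coordinate edge of the hairpin in kb, the y axis is the tag count at the strongest summit, boxes span the region, points with bars are tags with exact Poisson 95% intervals, and the black line is the hairpin. The region at -5.7 kb of MIR9-2 stands highest with 2323 tags, and the hairpins of MIR9-3 and MIR124-3 lie within a box.

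Within 100 kb the 3 miR-124 genes had 7 to 9 regions and the 3 miR-9 genes 12 to 18, but within 10 kb MIR124-2, with 5, had more than MIR9-1 and MIR9-3. At MIR124-1 the closest region, chr8:9903541-9904569, had summits at 192, 659 and 907 bp and up to 319 tags (285 to 356), with a fold enrichment of 2.64. A second region at 3215 bp had 298 tags (265 to 334), which the interval of the first includes. None of the 8 regions exceeded 319 tags, the lowest ceiling of the 6 genes. The 3 regions of highest fold enrichment were farther out, at 73.8 kb (6.22, 282 tags), 15.8 kb (6.19, 186 tags) and 17.8 kb (6.16, 216 tags), and the last 2 lay at ends of non-coding transcripts. The region at 15.8 kb had its background at the floor of 29.2 tags. In the RefSeq table the host transcript MIR124-1HG lies toward lower coordinates, with its closer end 59 bp from the hairpin. No strand was at hand for either. The closest region has its strongest summit 1050 bp from that end of MIR124-1HG and its nearest summit 335 bp from it. The strongest summit is closer to an end of another non-coding transcript, LOC124902057, at 309 bp, and lies within the bounds of that transcript.

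At MIR124-2 the regions lay mainly on the lower-coordinate side. A group of 6 regions over 14.1 kb, chr8:64368352-64382408, had 321 tags (287 to 358) at 1949 bp, 797 (743 to 854) at 5987 bp, 448 at 6868 bp, 591 at 8675 bp and 802 (747 to 859) at 10.2 kb. The region with 797 tags lay 56 bp from an end of MIR124-2HG, the host transcript, and the one with 802 lay 377 bp from an end of LINC01414. The intervals of these highest regions overlap almost wholly. On the higher side a single region at 3013 bp had 189 tags (163 to 218), and the next, at 78.7 kb, had 155 tags and the highest fold enrichment near this gene, 5.16. The background of this region at 78.7 kb was at the floor of 29.2 tags.

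MIR124-3 had the widest of the 71 regions over its hairpin. The region chr20:63177232-63179566 spans 2335 bp and has 7 summits, of which 1 lies inside the hairpin with 404 tags. Summits 953 bp from the hairpin toward lower and 487 bp toward higher coordinates had 507 and 523 tags (479 to 570 for the latter), and the other summits had 297 to 360. No other of the 6 hairpins held a summit. A second region 4452 bp toward lower coordinates had 416 tags (377 to 458), and the next on that side, at 14.7 kb, had 657 (608 to 709) with a fold enrichment of 9.27. No gene in the RefSeq table overlapped this hairpin, and the nearest non-coding transcript, LOC124904952, was 11.1 kb away.

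Compared across copies at the closest region, MIR9-3 had 996 tags (935 to 1060), the highest of the 6. MIR9-1 and MIR124-3, with 582 (536 to 631) and 523 (479 to 570), overlapped each other. MIR9-2, MIR124-2 and MIR124-1, with 363 (327 to 402), 321 (287 to 358) and 319 (285 to 356), overlapped as well. The place of MIR9-2 depends on which side is read, since the region on its other side, at 834 bp instead of 771 bp, had 1063 tags (1000 to 1129), an interval that overlaps that of MIR9-3. By fold enrichment the order changed, with 8.98 at MIR9-1, 7.66 at MIR9-3, 3.44 at MIR124-3, 2.64 at MIR124-1, 2.45 at MIR124-2 and 1.93 at MIR9-2. Here too the place of MIR9-2 depends on the side. Its region at 834 bp had 4.41, above the values at the miR-124 genes.

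These orders differ because the background enters the ratio. If the background is read as above, with an assumed tag length of 150 bp, it covers the 10 kb around a summit where it exceeds the floor. It would then include the region itself and any others there. On that reading, at equal tags, a region among others has the lower ratio. Within 10 kb of the hairpins the median region had a fold enrichment at percentile 13.3 of all regions, a tag count at percentile 80.6 and a background at percentile 97.1. In all 23 of these regions the tag percentile was above the fold enrichment percentile, as it was for 39.3% of all regions and for 64.4% of the 1353 regions within 10 kb of any microRNA gene. At MIR9-2 the 7 regions had a median of 991 tags on a background of 261, and the region at 771 bp, with 363 tags, had a fold enrichment at percentile 0.10. Between 10 and 100 kb the median percentiles of the 48 regions were 45.5 for fold enrichment and 66.6 for tags. Within 10 kb the miR-9 genes had a median of 930.5 tags over 14 regions, and the miR-124 genes 416 over 9.

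**Figure D4:**
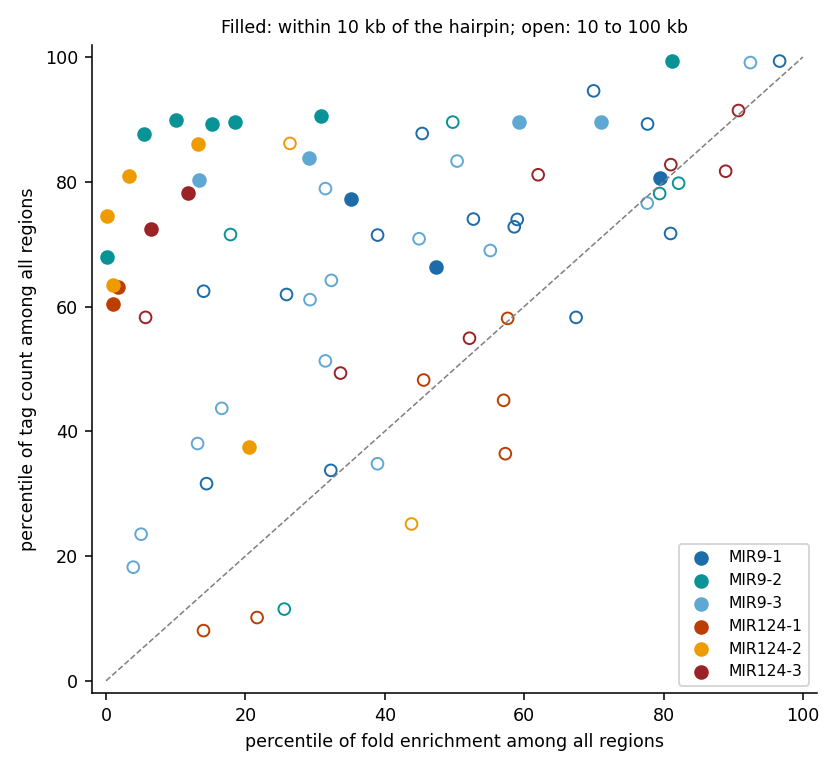
Percentile of fold enrichment (x axis) against percentile of tag count (y axis) among all 65234 regions, for the 71 regions near the 6 genes. Filled points lie within 10 kb of the hairpin and open points from 10 to 100 kb, color is the gene, and the dashed line marks equal percentiles. All 23 filled points lie above the line.

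Host transcripts were examined next, since the hairpins of miR-9 and miR-124 are cut from longer non-coding RNAs. In RefSeq the hairpins of MIR9-1, MIR9-2, MIR9-3 and MIR124-2 lie within the bounds of MIR9-1HG, MIR9-2HG, MIR9-3HG and MIR124-2HG, and exons and introns were not distinguished here. An outer end was accessible, by the strongest summit of a region, in 4 of 5 host genes, all but MIR124-1HG, and in 28.3% of all 18303 long non-coding genes. Counting any summit, an alternative added after seeing the data, gave 5 of 5 and 30.5%, so the exception rests on which summit of the region is used. Among all genes that reach into the 100 kb windows, the strongest summit of a region marked an end of 15 of 26 long non-coding genes, and of 8 of 13 coding genes against 66.7% of all coding genes. The 8 were CCT3, RHBG and MEF2D near MIR9-1, FANCI and POLG near MIR9-3, and YTHDF1, NKAIN4 and ARFGAP1 near MIR124-3. These counts include ends that lie outside the windows. FANCI was counted by a summit 124.1 kb from MIR9-3, and the long non-coding gene LOC112268153 by a summit 102.3 kb from it. RefSeq promoter windows, 250 bases before to 50 after a start site, were at hand for the 3 miR-9 hosts, 8 windows in all. A summit lay in 4 of 8, against 34.8% of 35116 windows. MIR9-1HG had its summit 37 bp before the start site, which is 1.34 kb upstream of the hairpin. MIR9-2HG had summits at 2 of 3 start sites, 6.4 and 24.1 kb upstream of the hairpin, and none at the start site 17.9 kb upstream. MIR9-3HG had a summit at 1 of 4, the start site 5.51 kb upstream, and none at the start sites 10.1 and 11.1 kb downstream of the hairpin, which could not include it.

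The 4 accessible windows are shown because each holds a summit upstream of a miR-9 hairpin. They are written 5′ to 3′ along the host transcript, with matches to the motifs searched in capitals.
MIR9-1HG, chr1:156421720-156422019, minus strand: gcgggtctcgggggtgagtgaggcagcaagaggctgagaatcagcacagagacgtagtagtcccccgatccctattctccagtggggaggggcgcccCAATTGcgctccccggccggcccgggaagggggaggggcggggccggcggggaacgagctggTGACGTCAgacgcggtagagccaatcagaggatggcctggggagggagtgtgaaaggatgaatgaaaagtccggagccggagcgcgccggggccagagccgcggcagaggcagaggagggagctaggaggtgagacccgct
MIR9-2HG, chr5:88673290-88673589, minus strand: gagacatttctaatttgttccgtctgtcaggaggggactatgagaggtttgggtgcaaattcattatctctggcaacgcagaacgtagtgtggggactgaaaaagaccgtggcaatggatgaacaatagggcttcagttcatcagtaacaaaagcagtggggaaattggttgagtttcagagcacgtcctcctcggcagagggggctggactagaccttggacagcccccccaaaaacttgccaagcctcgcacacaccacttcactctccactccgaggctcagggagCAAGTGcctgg
MIR9-2HG, chr5:88690992-88691291, minus strand: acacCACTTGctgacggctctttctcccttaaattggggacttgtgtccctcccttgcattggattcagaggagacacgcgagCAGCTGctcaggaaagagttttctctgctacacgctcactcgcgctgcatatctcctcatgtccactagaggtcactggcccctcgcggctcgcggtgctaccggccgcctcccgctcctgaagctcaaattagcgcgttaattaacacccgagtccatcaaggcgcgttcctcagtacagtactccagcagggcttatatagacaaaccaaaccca
MIR9-3HG, chr15:89362259-89362558, plus strand: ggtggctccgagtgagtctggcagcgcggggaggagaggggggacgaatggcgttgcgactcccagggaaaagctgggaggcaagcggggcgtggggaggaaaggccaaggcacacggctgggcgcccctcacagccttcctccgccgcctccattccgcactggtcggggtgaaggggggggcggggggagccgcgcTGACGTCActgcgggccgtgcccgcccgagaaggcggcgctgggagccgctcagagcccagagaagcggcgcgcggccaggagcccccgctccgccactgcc
Motifs were searched on both strands. CANNTG, the E-box read by NGN2 and related factors, was found in 3 of the 4 windows. It was in 68.7% of all 35116 windows and in 59.4% of the 12218 with a summit. CAGATG, a form of it, was in none of the 4, in 14.7% of all and in 8.55% of those with a summit. TTCAGCACC, part of the site bound by the repressor REST, was in none of the 4, and in 0.376% both of all windows and of those with a summit. TGACGTCA, the full site for CREB, a factor that responds to neuronal activity, was found in MIR9-1HG and MIR9-3HG, and in 1.85% of all windows or 3.89% of the 12218 with a summit. It was searched for after the sequences had been seen, and a match of letters shows no binding.

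Other microRNA genes gave the setting for these values. Of 17 other neural microRNA genes, 9 had a region summit within 1 kb (52.9%, Wilson 95% interval 31.0 to 73.8), against the 13.9% of all. The 9 included MIR137, with a summit at 38 bp, and MIR128-2, at 144 bp, as well as MIR132 and MIR212, which share a region. The interval takes genes as independent, which MIR132 and MIR212 are not. The list was picked with earlier results known, so the comparison is not a test. The 17 genes had 0 to 4 regions within 10 kb, fewer than MIR9-2 and MIR124-2. Of 18 genes of muscle, liver, blood and endocrine microRNAs, 0 had a summit within 1 kb, which would allow a share of up to 16.7% if the genes were independent, and the background of 13.9% lies within that limit. They are not, since 10 of the 18 share their nearest region with another gene of the list, in 5 pairs such as MIR143 and MIR145, so the limit is wider than that. Within 5 kb the count was 5 of 18, against 36.3% of all. Among pluripotency microRNA genes 5 of 8 scored, but MIR302A, MIR302B, MIR302C, MIR302D and MIR367 lie side by side and share a single region of 174 tags, while MIR371A, MIR372 and MIR373 had none.

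**Figure D5:**
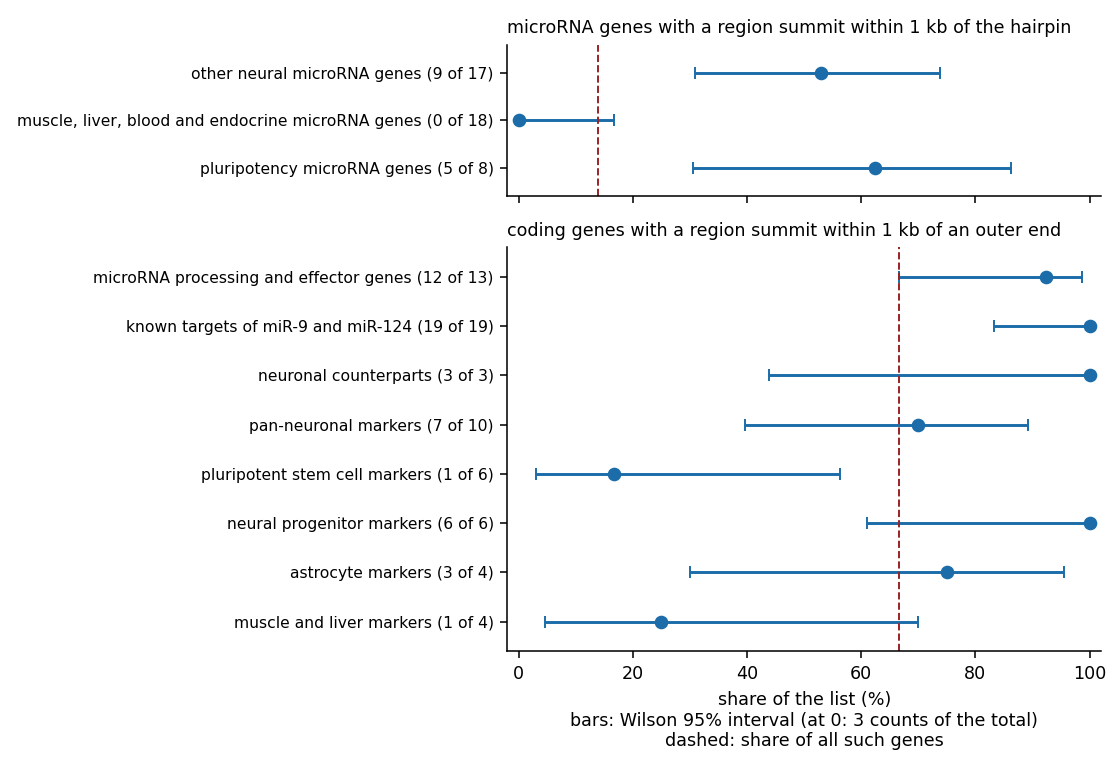
Share of each gene list with a region summit within 1 kb, for microRNA genes (hairpin, upper panel) and coding genes (outer ends, lower panel). Points are shares in percent, bars are Wilson 95% intervals for counting error (3 counts of the total where the share is 0), and dashed lines are the shares over all such genes, 13.9% and 66.7%. The bars take genes as independent, although the 5 pluripotency microRNA genes that score share a single region. Other neural microRNA genes are at 52.9%, and the muscle, liver, blood and endocrine microRNA genes are at 0.

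Genes that make or carry microRNAs were mostly open. An accessible end was found for 12 of 13, where 66.7% of all coding genes had one, at fold enrichments of 8.51 to 15.9. AGO1 and AGO3 were scored by the same region, with 727 tags. DROSHA and DGCR8, which cut the hairpin from its transcript, had 1720 and 1565 tags, XPO5, the exporter of the precursor, had 1550, and DICER1, which cuts it to its final length, had 1442. AGO2, the Argonaute that cleaves targets, was the exception, with the nearest summit 4.76 kb from an end.

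Known targets of miR-9 and miR-124 had an accessible end in 19 of 19 cases, against 66.7% of all coding genes. Of the 15 with an annotated promoter window, 12 had a summit in it, where 57.5% of all coding genes with such a window did. REST, the repressor of neuronal genes that miR-9 targets, had 1034 tags (fold enrichment 7.47), and PTBP1, the splicing repressor that miR-124 targets, had 2502 (12.1). ACTL6A, the chromatin remodelling subunit replaced in neurons, had 2630 (15.4). Of the counterparts used in neurons, 3 of 3 had an accessible end, against the same 66.7%, with 1120 tags at PTBP2, 549 at ACTL6B and 537 at SMARCD3. A summit in an annotated promoter window was found for 2 of 3, all but PTBP2. NR2E1, a nuclear receptor of neural stem cells, had 209 tags and the lowest fold enrichment of the targets, 2.71. The list was assembled from known targets and so says nothing of targets in general.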

How the data were processed

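ATAC-seq peaks of 3 replicates, 1 group, came as a single deposited list that the labels name as the optimal set by irreproducible discovery rate. Positions are in hg38, per the submitters' processing notes, and were matched to RefSeq tables for GRCh38.p14. The aligner and peak caller are not given in the sources used here. The authors deposited for each summit a fold enrichment, which is a linear ratio, and a −log10 p value; the −log10 q values were not used here. The authors also deposited a score per entry, whose scaling is not given in the sources used here. The 145092 entries with equal bounds were merged into 65234 regions, each represented by its entry of highest −log10 p. A tag count and a background were recovered from ratio and −log10 p with Poisson tail probabilities and a pseudocount of 1 in the ratio, and every entry gave a whole number to within 0.00079 units of −log10 p. Regions had 58 to 3783 tags, and counting error at the median of 238 is about 6.48%. Of the backgrounds above the floor of 29.2 tags, 99.8% were multiples of 0.015. This is the step that 1 tag spread over 10 kb gives if a tag is 150 bp long, a length that was assumed. Distances run from the hairpin edge to the strongest summit unless another summit is named. RefSeq supplied gene bounds, so introns and exons were not assigned, and both outer ends stand for the start of a gene. The rule for names covered the 6 genes, their hosts, all regions within 10 kb, the 3 regions of highest fold enrichment within 100 kb and listed genes, and allowed coding neighbours; listed genes and neighbours are named in part. The members and lists were chosen with earlier results of these data known. Alternatives changed score, window, summit definition and ranking. Ranking by tags, any summit at host ends, promoter windows and leaving out coding gene ends were added after seeing the data. Python 3.11.15, numpy 2.4.6, scipy 1.17.1, pandas 2.3.3 and matplotlib 3.10.9 were used, and the code was tested on simulated data.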

Additional observations from a re-analysis of the deposited data

How the results depend on the processing

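No paired analysis was possible because the 3 replicates were merged into a single list, so no result could be recomputed without a replicate, and depth per replicate sets no limit that can be stated. Of 96 values recomputed for 20 results, 66 stayed within the limit set for a change and 30 moved. Within 50 kb the regions numbered 10 at MIR9-1, 5 at MIR124-1 and 4 at MIR124-3. Within 200 kb they numbered 27, 23, 13, 13 and 19 at MIR9-1, MIR9-2, MIR124-1, MIR124-2 and MIR124-3. Counting every summit entry gave 36, 24, 39, 18 and 25 at MIR9-1, MIR9-2, MIR9-3, MIR124-1 and MIR124-3. Only regions above the median fold enrichment gave 9, 3, 6, 3, 0 and 5 in the order MIR9-1 to MIR124-3. With 500 bp in place of 1 kb, 1 of the 6 genes had a region summit. The highest fold enrichment became 9.26 at MIR9-1 and 4.17 at MIR124-2 within 50 kb, and 15.1 at MIR9-3, 13.2 at MIR124-1 and 7.83 at MIR124-2 within 200 kb. Ranked by tags it was 2.64 in place of 6.22 at MIR124-1 and 4.17 in place of 5.16 at MIR124-2, the latter also when ranked by −log10 p. Within 5 kb, 5 of the 18 muscle, liver, blood and endocrine microRNA genes had a summit, where 36.3% of all microRNA genes did. By promoter window 12 of the targets scored, and only 15 of the 19 had such a window. The causes of these changes, beyond the changed window or rule itself, were not tested.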

Other observations

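Among all 1913 microRNA genes, the share of the 20 kb around the hairpin covered by accessible regions was also high at the miR-9 copies. MIR9-2 ranked first with 24.9%, MIR9-3 second with 22.5%, and MIR9-1 was at rank 21 with 18.6%, where the median gene had 2.79%. The miR-124 copies had 17.4% at MIR124-2, 14.1% at MIR124-3 and 10.3% at MIR124-1. MIR130A, with 22.4% and 5 regions, came next after MIR9-3. MIR5684, on chromosome 19, had 6 regions within 10 kb, the second highest count.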
